A study of Mus musculus with 3 samples.

Results

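The high mobility group (HMG) genes of osteoblast-like cells were examined, with Hmga1 as the leading gene. The 9 genes are Hmga1, Hmga2, Hmgb1, Hmgb2, Hmgb3, Hmgn1, Hmgn2, Hmgn3 and Hmgn5, which are 9 of the 15287 genes with a value in the expression table, and all 9 passed the filter of at least 1 FPKM (fragments per kilobase of transcript, scaled to library size) in at least 1 library, as did 11137 genes in all. Genes were taken by name. Hmga1 was chosen by its FPKM, which was much higher with Ti particles than without them, so its difference between those libraries is a description of what chose it and not a finding.

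Wild type MC3T3-E1 cells, a mouse preosteoblast line derived from calvaria, were sequenced as 3 libraries of total RNA. The CTL cells had no special treatment, the Ti cells received titanium particles at 10 μg/cm2 for 24 h, and the Ti+Se-Met cells received the same particles together with 5 μM selenomethionine, a natural selenium-containing amino acid, over the same 24 h. The study used Ti particles as a model of the wear debris that loosens joint implants, and asked what Se-Met changes in stimulated cells. There was 1 library per condition, so no difference had a replicate check, no p-value is given, and the intervals below cover counting error only. They compare libraries, not conditions. Each library enters 2 of the 3 comparisons, so the comparisons are not independent of each other.

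The high mobility group proteins are abundant, small proteins that shape chromatin without being part of the nucleosome core. HMGA proteins carry AT-hooks that bind the minor groove of AT-rich DNA, are plentiful in embryonic and transformed cells, and are low in most resting adult tissue. HMGB proteins bend DNA through HMG boxes, and HMGB1 released by damaged or activated cells also acts as an alarm signal through receptors such as RAGE and the Toll-like receptors. HMGN proteins bind nucleosomes and counteract the compaction imposed by linker histones.

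Depth was estimated from the smallest steps between values as about 14300000 fragments for CTL, 14750000 for Ti and only 10100000 with Ti+Se-Met. The label of the cells was checked against markers of the osteoblast lineage. Col1a1, the main collagen of bone, had 1333 FPKM with no treatment, 354 with Ti and 482 with Ti+Se-Met, and Runx2, a transcription factor that directs osteoblast differentiation, had 26.8, 17.1 and 23.0. Sp7 and Ibsp, which mark more mature osteoblasts, stayed under 1 FPKM in every library, with Ibsp listed at 0 in CTL and Ti+Se-Met. Macrophage, endothelial, adipocyte and muscle markers were near 0 except Ctsk, a protease best known from osteoclasts, at 17.8, 29.7 and 26.2 FPKM. In a bulk sample, a change in the number of cells of a type and a change in RNA per cell cannot be told apart.

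In the HMG family the values moved in the HMGA genes far more than in the HMGB and HMGN genes. The level of Hmga1 was 33.1 FPKM in CTL, 324 with particles alone and 302 with particles and Se-Met, which came from about 713, 7201 and 4592 fragments. Both libraries with particles thus lay near 10 times the CTL level. The level of Hmga2 was 27.1 FPKM in CTL, 176 with particles alone and 155 with particles and Se-Met, from about 1396, 9369 and 5665 fragments. The counting intervals of CTL and of the libraries with particles were far apart for both genes, as the plot of levels shows.

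**Figure D1:**
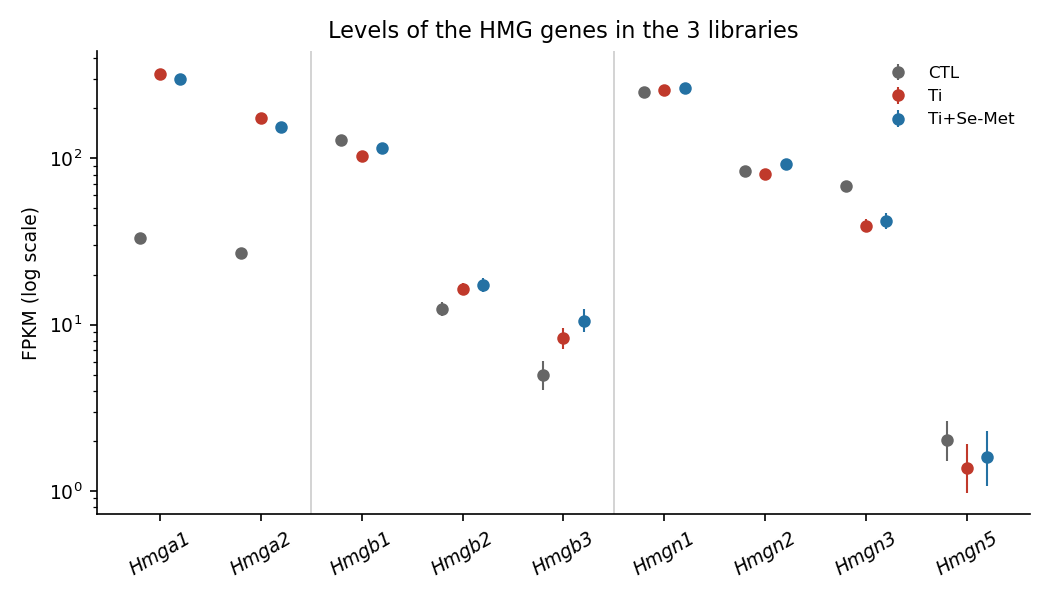
FPKM of the 9 HMG genes on a log axis in the CTL (grey), Ti (red) and Ti+Se-Met (blue) libraries, with 1 point per library and bars for the 95% counting interval. Hmga1 and Hmga2 are the genes whose CTL point lies far below both others, while the points of Hmgn1 lie between 251 and 265 FPKM.

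Hmga1 lies at chr17:27556574-27563672 and Hmga2 at chr10:120361268-120476469 (RefSeq, GRCm38.p6). The 250 bases before the start of each gene are shown because the data turn on these genes, with GC boxes (GGGCGG on either strand) in capitals. For Hmga1 this is chr17:27556324-27556573 on the plus strand, before the first of 2 starts, and for Hmga2 chr10:120476470-120476719 on the minus strand.
Hmga1: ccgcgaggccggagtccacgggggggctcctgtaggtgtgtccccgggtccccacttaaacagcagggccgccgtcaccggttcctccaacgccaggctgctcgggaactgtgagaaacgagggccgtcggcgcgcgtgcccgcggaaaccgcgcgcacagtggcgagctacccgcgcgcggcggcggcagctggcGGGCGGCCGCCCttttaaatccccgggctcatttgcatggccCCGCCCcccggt
Hmga2: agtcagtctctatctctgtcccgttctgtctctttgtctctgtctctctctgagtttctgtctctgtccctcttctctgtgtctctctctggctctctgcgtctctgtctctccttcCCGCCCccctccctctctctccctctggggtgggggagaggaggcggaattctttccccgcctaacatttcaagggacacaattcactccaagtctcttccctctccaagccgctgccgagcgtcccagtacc

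The Hmga1 window holds 3 GC boxes and is 72.8% G or C, against a median of 52.4% over 32851 mouse promoters of the same length. The Hmga2 window holds 1 GC box, is 56.4% G or C and is rich in runs of C and T. Over all promoters, 32.7% held a GC box, 33.8% CCAAT, 12.4% TATAAA, 6.75% the AP-1 letters TGANTCA and 6.02% the E-box CACGTG, each searched on both strands. None of these letters apart from the GC box occurs in the Hmga1 or Hmga2 window. The GC box is not particular to them, as 7 of the 8 HMG genes with a promoter entry hold at least 1. The Hmgn1 window holds 4 GC boxes and is 76.0% G or C. A CCAAT box occurs before 5 of the 8 HMG genes that had a promoter entry, namely Hmgb1, Hmgb2, Hmgb3, Hmgn1 and Hmgn5. For Hmgb1 it lies before the first of 2 starts and not before the second. Hmgn2 has no CCAAT box either, so the lack of this box is not particular to the HMGA windows. Motif matches describe the sequence and are not binding sites.

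In Ti against CTL, Hmga1 was 9.79-fold higher (95% counting interval 9.06 to 10.6) and ranked 5th of 11137 genes by its difference in log2(FPKM + 1), the scale used for ratios here. Hmga2 was 6.5-fold higher (6.15 to 6.89) and ranked 9th. Of the 9 HMG genes, 2 lay 2-fold or more above CTL and 0 below it by as much. Of all genes that passed the filter, 7.26% differed by 2-fold or more, made up of 3.63% higher and 3.64% lower. Because the family was chosen with these values known, the count is a description. The other 7 genes lay between log2 ratios of -0.77 and 0.64 with a median of -0.05, and the median of all genes was 0.08.

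In Ti+Se-Met against CTL the same 2 genes had the highest ratios of the family. Hmga1 was 9.12-fold higher (8.42 to 9.88) and Hmga2 5.74-fold higher (5.42 to 6.10), ranked 5th and 14th. This comparison shares the CTL library with the one that Hmga1 was chosen by, so these values are again a description. Again 2 of the 9 genes lay above CTL by 2-fold or more and 0 below it. Of all genes 5.96% were past 2-fold, made up of 2.64% higher and 3.32% lower. At 1.5-fold, Hmgb3 and Hmgn3 joined them in both comparisons, so 4 of the 9 genes were past that limit, beside 26.8% of all genes for Ti and 22.2% for Ti+Se-Met. The other 7 genes ranged from -0.67 to 0.96 in log2 ratio.

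**Figure D2:**
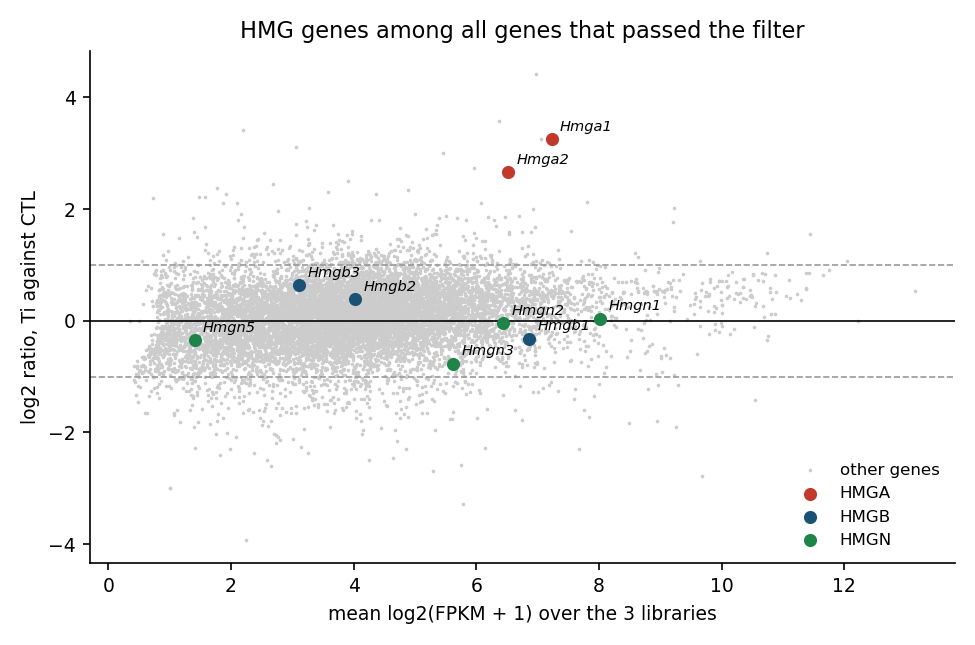
Log2 ratio of Ti against CTL (y axis, from FPKM + 1) plotted against the mean log2(FPKM + 1) of the 3 libraries (x axis) for all 11137 genes that passed the filter, with the HMG genes coloured by family and dashed lines at 2-fold. Hmga1 and Hmga2 lie at the upper edge of the cloud, at 3.25 and 2.66, among genes of high level, and the other 7 HMG genes lie between the dashed lines.

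Ti+Se-Met against Ti also uses the Ti value that Hmga1 was chosen by, so its values for Hmga1 are again a description. With Se-Met added, Hmga1 was 0.931 times its Ti level (0.897 to 0.967) and Hmga2 0.883 times (0.854 to 0.913). These differences exceed counting error in FPKM as deposited, but for Hmga1 not after scaling each library by the median of its ratios to the other libraries, where the fold was 0.976 (0.940 to 1.01). For Hmga2 the interval lay below 1 in FPKM as deposited and in all other scalings tried (median of ratios, upper quartile, and TPM, which gives each library the same total), with the value nearest to 1 being 0.925 (0.895 to 0.956). None of the 9 HMG genes differed by 2-fold, beside 0.224% of all genes, 0.162% higher and 0.0629% lower, and the spread between replicates is unknown. The log2 ratio was above 0 for the other 7 HMG genes, from 0.04 to 0.32, and the median of all genes was -0.06.

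**Figure D3:**
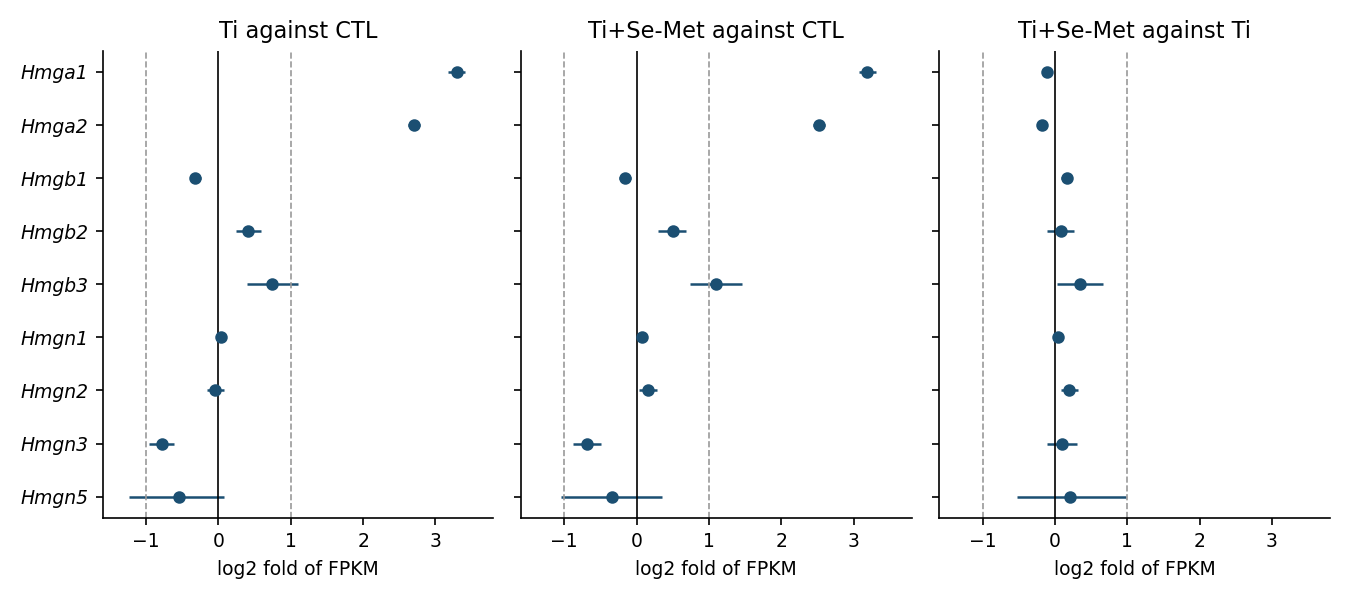
Log2 fold of FPKM (x axis) of each HMG gene in the 3 comparisons, with bars for the 95% counting interval and dashed lines at 2-fold. In the Ti+Se-Met against Ti panel all 9 points lie between the dashed lines, with Hmga1 and Hmga2 just below 0.

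Hmgb1, the most abundant HMGB gene and the source of the extracellular alarm protein, had levels of 129 FPKM in CTL, 103 with Ti and 115 with Ti+Se-Met. It was 0.800 times the CTL level in Ti (0.760 to 0.842) and 0.895 times in Ti+Se-Met (0.847 to 0.946). Its Ti+Se-Met value thus lay between the others, 1.12-fold above Ti (1.06 to 1.18). Hmgb2, which is linked to cell division and is much lower than Hmgb1, had 12.4, 16.5 and 17.4 FPKM in the same order of libraries. Hmgb2 was 1.33-fold higher in Ti than in CTL (1.18 to 1.51) as deposited. The size of this difference depends on the scaling, with 1.14 (1 to 1.29) in TPM and 1.17 (1.04 to 1.33) by the upper quartile. For Hmgb2, Ti+Se-Met and Ti could not be separated at this depth (1.06, 0.931 to 1.2).

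Hmgb3, a family member of embryonic and blood-forming cells, had 4.97 FPKM without particles, 8.31 with them and 10.6 with Se-Met added, from about 107, 185 and 161 fragments. It was 1.67-fold higher in Ti (1.31 to 2.15) and 2.13-fold higher in Ti+Se-Met (1.66 to 2.75) than in CTL, so its value was the highest with Se-Met. The excess of Ti+Se-Met over Ti was 1.27-fold, with an interval of 1.02 to 1.58 that nearly reaches 1. On the scale with 1 FPKM added, the log2 ratio of Hmgb3 between Ti+Se-Met and CTL was 0.96, just under the 2-fold limit. Within a library, Hmgb1 was 25.9 times Hmgb3 in CTL, 12.4 times under Ti and 10.9 times under Ti+Se-Met.

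The HMGN genes differed among themselves. Hmgn1, the highest HMG gene of the CTL library, read 251 FPKM for CTL, 258 for Ti, then 265 for Ti+Se-Met. Its fold in Ti against CTL was 1.02 (0.993 to 1.06), and the sign of its log2 ratio, 0.04, turned to -0.19 after scaling to TPM, to -0.01 by the median of ratios and to -0.15 by the upper quartile. No direction against CTL can therefore be given for Hmgn1, and in Ti+Se-Met its fold to CTL was 1.05 (1.02 to 1.09) as deposited and 0.917 (0.885 to 0.95) in TPM. Hmgn2 had 83.6, 81.0 and 92.9 FPKM and a fold of 0.968 (0.897 to 1.05) in Ti against CTL, which was 0.825 (0.765 to 0.891) in TPM. With Se-Met it was 1.15-fold above Ti (1.06 to 1.25), an interval above 1 in all 4 scalings, while its log2 ratio to CTL, 0.15, turned to -0.05 in TPM.

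Hmgn3, which is found in fewer tissues than the other HMGN genes, read 67.9 FPKM (CTL), 39.4 (Ti) and 42.1 (Ti+Se-Met). Both libraries with particles lay well below CTL, at 0.581 times (0.515 to 0.653) and 0.621 times (0.544 to 0.708) its level. It was the HMG gene with the lowest ratio in both comparisons. In TPM its log2 ratio in Ti reached -1.0 and passed the 2-fold limit. Between Ti+Se-Met and Ti the fold of Hmgn3 was 1.07 (0.925 to 1.24), which depth does not separate from equal levels. Hmgn5, an X-linked member with a long acidic tail, was near the detection limit with 2.02, 1.38 and 1.60 FPKM, from about 52, 36 and 29 fragments. As deposited, no difference in Hmgn5 was detectable at this depth, with a fold of 0.683 (0.426 to 1.05) in Ti and 0.792 (0.483 to 1.27) in Ti+Se-Met against CTL. For Ti the interval excluded 1 in TPM (0.582, 0.363 to 0.892) and by the upper quartile (0.602, 0.375 to 0.922).

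FPKM values are per length, so the levels of different genes can be set side by side within a library, and such ratios do not change with the scaling between libraries. In CTL the order from high to low was Hmgn1, Hmgb1, Hmgn2, Hmgn3, Hmga1, Hmga2, Hmgb2, Hmgb3 and Hmgn5. In both Ti and Ti+Se-Met, Hmga1 came first with Hmgn1 next and Hmga2 after it, and the other genes followed in the order they had in CTL. No neighbours in these orders had overlapping counting intervals in any library. These intervals omit errors of transcript length, on which an order across genes also rests. Hmga1 was 0.132 times Hmgn1 in CTL, 1.26 times under Ti and 1.14 times under Ti+Se-Met. Hmga1 also moved ahead of Hmga2, from 1.22 times its level in CTL to 1.84 and 1.94 times.

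The summed FPKM of the 9 genes was 611 for CTL, 1007 for Ti, then 1002 for Ti+Se-Met. The 2 HMGA genes made up 9.8% of the sum in CTL, 49.7% under Ti and 45.7% under Ti+Se-Met. The share of the 4 HMGN genes was 66.3%, 37.7% and 40.1%, and that of the 3 HMGB genes 23.9%, 12.7% and 14.3%. The HMGA genes thus went from the smallest to the largest class of the family. The sum of the other 7 genes was 551, 507 and 544 FPKM, so it was 0.921 and 0.988 times its CTL value, while the HMGA sum was 8.31 and 7.60 times its own. Counted as estimated fragments, which weights long transcripts more, the HMGA share was 13.7% (95% exact binomial interval 13.2 to 14.2), 55.9% (55.4 to 56.5) and 51.9% (51.2 to 52.6).

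**Figure D4:**
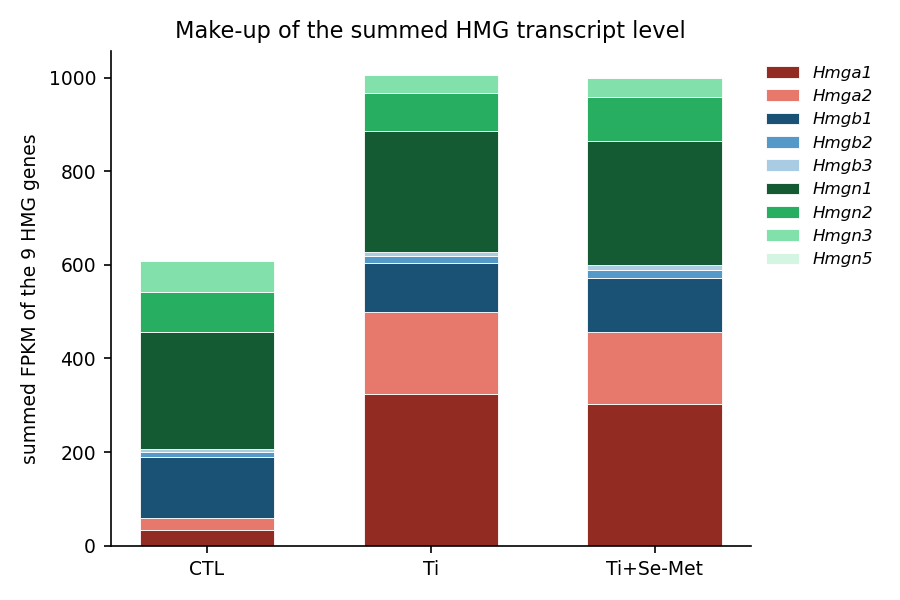
Summed FPKM of the 9 HMG genes (y axis) in each of the 3 libraries, with each bar divided by gene (reds HMGA, blues HMGB, greens HMGN). The red segments grow from 60.2 FPKM (CTL) to 500.1 (Ti) and 457 (Ti+Se-Met), while the blue and green segments keep nearly the same height in FPKM as deposited.

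Reads can be shared with near-identical copies. Of 20 copies or related symbols found by name, 14 are named for Hmgb1, and 1 of the 20, Hmga1b, has a value in the table. Hmga1b was listed at 0 for CTL, at 0.42 FPKM with Ti and at 0.27 with Ti+Se-Met, which was 0.13% of Hmga1 in Ti. Of the 1527 stretches of 100 bases in the Hmga1b transcript, 78.8% also occur in a Hmga1 transcript, so how reads were divided between both genes is uncertain, while the fold of their sum in Ti against CTL was 9.80. Overlap with the copies of Hmgb1 and Hmgn2 was not measured, so a division of their reads among copies cannot be judged here.

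The Hmga2 mRNA is a well-known target of the let-7 microRNAs, which share 1 seed (bases 2 to 8, in capitals). The mature sequences of 4 family members are shown to set this seed beside the target sites.
mmu-let-7a-5p: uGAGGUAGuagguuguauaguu
mmu-let-7b-5p: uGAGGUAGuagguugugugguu
mmu-let-7g-5p: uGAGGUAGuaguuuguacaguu
mmu-miR-98-5p: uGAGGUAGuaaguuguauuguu

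The letters complementary to the seed, CTACCTC, occur 6 times in the longest protein-coding Hmga2 transcript (3810 bases, GENCODE M21 on GRCm38), and as many were found in 3 of 10813 genes, or 0.0277%. They are shown at positions 854, 2091, 2529 and 3387 of the transcript, with the letters in capitals, while the other 2 lie near its beginning, at positions 82 and 94.
Hmga2 854: ccgacattcaatttCTACCTCag
Hmga2 2091: cccactcctcaataCTACCTCtg
Hmga2 2529: tgatttgcaaggaaCTACCTCca
Hmga2 3387: atcaaaacacactaCTACCTCtt

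The longest Hmga1 transcript, of 2001 bases, holds the letters 1 time, as 23.6% of genes do at least, and those of the other 7 HMG genes hold them 0 times. These RNA-seq libraries do not measure mature let-7. The proteins around let-7 and the Hmga2 mRNA were read from a list of 13 symbols, of which 9 passed the filter and 0 differed by 2-fold in any comparison. Of all genes, 7.26% were past 2-fold for Ti and 5.96% for Ti+Se-Met, both relative to CTL, and 0.224% between both Ti libraries. With only 9 genes, a count of 0 therefore does not set the list apart from all genes. The median log2 ratio of the list in Ti against CTL was 0.12, near the 0.08 of all genes. Igf2bp2, an RNA-binding protein that is itself known as a target of HMGA2, read 20.7 FPKM (CTL), 36.0 (Ti) and 33.7 (Ti+Se-Met), the highest ratio of the list. Tut4, which adds uridines to the let-7 precursor, had the lowest ratio, with 12.7, 7.55 and 7.90 FPKM. Between Ti+Se-Met and Ti the extremes were Ago2, which carries microRNAs, with a log2 ratio of 0.28, and Dgcr8, which takes part in their processing, with -0.58. Lin28a and Lin28b, which block let-7 maturation, had at most 0.04 FPKM in any library.

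The genes whose pattern over the 3 libraries was most like that of Hmga1 were found by the distance between their pairs of log2 ratios to CTL, among 8729 genes with a mean of at least 5 FPKM. The nearest was Prl2c3, a gene of the proliferin family (distance 0.15), at 0.97 FPKM for CTL, 16.0 for Ti, then 16.1 for Ti+Se-Met. Adding 1 FPKM understates the differences of a gene this low in CTL, so the first place of Prl2c3 rests on that scale. The proliferin family has near-identical members, so the division of reads among them is uncertain. The next was Tnfrsf12a, the receptor of the cytokine TWEAK (0.16), with 28.2, 278 and 289 FPKM. Tnfrsf12a is thus like Hmga1 in level as well as in ratio.

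Gm10058, a predicted gene (0.17), was listed at 0 for CTL, at 9.70 FPKM with Ti and at 7.95 with Ti+Se-Met, so no fold is given. The place of Gm10058 also rests on the added 1 FPKM. Fosl1, which encodes the AP-1 protein Fra-1 (0.33), had 10.2, 88.5 and 84.3 FPKM. Il1rl1, the receptor of interleukin-33 (0.43), had 17.6, 222 and 135 FPKM, and of these 5 genes it had the largest difference between Ti and Ti+Se-Met. Hmga2 was the 7th nearest gene, at a distance of 0.90. A likeness over 3 libraries describes the values and says nothing of shared control.

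Other chromatin genes were read from lists of related functions. Of 34 other genes with an HMG box, 27 were listed and 21 passed the filter, and on the scale with 1 FPKM added 0 of these differed by 2-fold in any comparison. Of all genes, 7.26% were past 2-fold for Ti and 5.96% for Ti+Se-Met, both relative to CTL, and 0.224% between both Ti libraries. With 21 genes, a count of 0 does not set this list apart from all genes. In TPM 1 of the 21 was lower in Ti, and 1 was higher and 1 lower in Ti+Se-Met, each against CTL. Their median log2 ratio in Ti against CTL was 0.13. On the same scale Wdhd1, a replication protein, had the highest ratio with 2.96, 4.99 and 4.99 FPKM, and Sox5, a transcription factor of cartilage, the lowest with 1.95, 0.62 and 0.76. Between Ti+Se-Met and Ti the extremes were Lef1, a partner of β-catenin, at 0.31, 0.81 and 1.47 FPKM, and Sox4 at 11.6, 16.9 and 13.2. Adding 1 FPKM understates the differences of such low genes, since without it Lef1 was 2.61-fold above CTL in Ti (1.39 to 5.26), Wdhd1 1.69-fold (1.39 to 2.05) and Sox5 at 0.318 times CTL (0.209 to 0.471).

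The 15 linker histone symbols include older and newer names of the same genes. Of these symbols 7 were listed and 3 passed the filter, and 0 of the 3 differed by 2-fold. Beside the 7.26% of all genes past 2-fold for Ti, 3 genes are too few for this count to be informative. H1f0, the linker histone of resting cells, had 131, 118 and 127 FPKM, and H1f10 had 12.2, 18.9 and 15.4, which were the extremes of this list in both Ti against CTL and Ti+Se-Met against Ti. Of 18 histone chaperones and heterochromatin proteins, 3 lay 2-fold or more above CTL with Ti and 0 below it, beside 3.63% of all genes higher and 3.64% lower. Their median of 0.21 was -0.02 in TPM and 0.02 by the upper quartile, where that of all genes was -0.14 and -0.09. The 3 were Chaf1b with 4.03, 14.6 and 12.5 FPKM, Asf1b with 2.36, 7.19 and 6.63, and Chaf1a with 8.57, 21.4 and 20.7, all chaperones that deposit histones on newly made DNA. These 3 were also the ones past 2-fold when Ti+Se-Met was set against CTL, beside 2.64% of all genes higher and 3.32% lower. Both comparisons use the same CTL library. Cbx5, the heterochromatin protein HP1α, had the lowest ratio in Ti, with 38.9, 29.4 and 35.3 FPKM, and the highest between Ti+Se-Met and Ti, where Asf1a was the lowest with 14.4 and 12.3 FPKM.

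The receptors and cofactors of extracellular HMGB1 were read beside Hmgb1 itself. Of 12 symbols 7 passed the filter, and 2 of these lay 2-fold or more above CTL with Ti and 0 below it (3.63% and 3.64% of all genes). Cd14, a coreceptor of the Toll-like receptors, had 5.70, 16.6 and 14.8 FPKM. Thbd, thrombomodulin, which can bind HMGB1, had 41.6, 90.3 and 58.4 FPKM and was 0.647 times its Ti level with Se-Met (0.615 to 0.682). In TPM and by the upper quartile the count was 1 gene. Havcr2 had 2.64, 5.31 and 4.84 FPKM and was under the limit only with 1 FPKM added. Without it Havcr2 was 2.01-fold above CTL in Ti (1.57 to 2.59). Tlr4 had 6.08, 6.08 and 4.81 FPKM and Tlr2 14.9, 16.1 and 16.3, while Ager, which encodes RAGE, was below the filter with at most 0.24. Cxcl12, a chemokine that forms a complex with HMGB1, had 133, 112 and 125 FPKM, the lowest ratio of the list in Ti and the highest between Ti+Se-Met and Ti.

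HMGA genes are known to be high in dividing cells, so genes of the cell cycle were read beside them. All 27 proliferation genes passed the filter, and 6 lay 2-fold or more above CTL with Ti and 0 below it, beside 3.63% and 3.64% of all genes, with a median log2 ratio of 0.70. With Ti+Se-Met 12 of them lay above CTL by as much, beside 2.64% of all genes, and the median was 0.99. The counts were 4 and 9 in TPM, and 14 in Ti+Se-Met by the median of ratios. Mcm7, a part of the replicative helicase, had 17.7, 51.1 and 49.0 FPKM, the highest ratio in Ti. Mki67, the Ki-67 antigen, had the lowest, with 17.3, 16.3 and 27.2. With Se-Met, Ccnb2, a mitotic cyclin, had the highest ratio to Ti (9.94, 12.7 and 23.4 FPKM) and Ccne2, a cyclin of S phase entry, the lowest (3.01, 4.05 and 2.73). Proliferation genes as a list had a median of 0.25 between Ti+Se-Met and Ti, whereas Hmga1 was at -0.10 and Hmga2 at -0.18. The part of proliferation in the HMGA values was not tested.

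Of the 6 osteoblast lineage markers that passed the filter, 3 lay 2-fold or more below CTL with Ti and 1 above it (3.64% and 3.63% of all genes). In TPM and by the upper quartile 4 lay below it by as much. The log2 ratio was below 0 for 5 of the 6, the direction opposite to the HMGA genes. Markers of the cells themselves thus also differed between the libraries. Spp1, osteopontin, was the higher one, with 1261, 3706 and 4659 FPKM. The summed level of the macrophage and osteoclast list was 17.9, 30.2 and 26.7 FPKM, nearly all of it Ctsk, with Csf1r and Cd68 under 1 FPKM and Ptprc and Adgre1 not among the genes listed. The part of these markers in the HMG values was not tested.

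**Figure D5:**
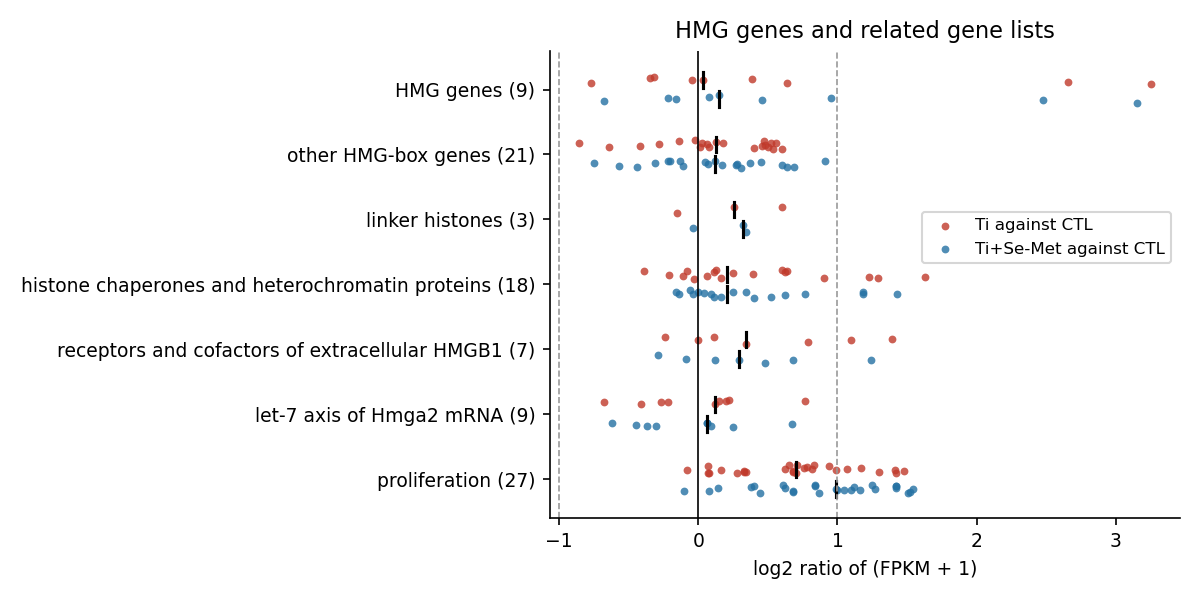
Log2 ratio of (FPKM + 1) (x axis) of every gene that passed the filter in the HMG family and 6 related lists, for Ti against CTL (red) and Ti+Se-Met against CTL (blue), with black bars at the medians, dashed lines at 2-fold and the number of genes in brackets. Hmga1 and Hmga2 lie to the right of all other points, and the proliferation list has the highest medians, 0.70 and 0.99.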

How the data were processed

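RNA was extracted with TRIzol, prepared with a NEBNext Ultra kit and sequenced on an MGI T7 instrument. The authors removed adapters and low-quality reads and aligned with HISAT2. The study's methods name HTSeq for counting, and the submitters' processing notes name StringTie, SAMtools and mm9. The deposited values are FPKM per gene with 2 decimals, each relative to its own library. How FPKM was computed is not given in the sources used here. The table has no coordinates. Positions, promoters and microRNAs are from RefSeq (GRCm38.p6), and transcripts from GENCODE M21, neither of them on mm9.

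Differences in log2(FPKM + 1) were computed in Python 3.11.15 with numpy 2.4.6, pandas 2.3.3 and scipy 1.17.1 for genes with at least 1 FPKM in at least 1 library. FPKM are not counts and conditions had 1 library each, so no test was made. Fragments were estimated from 1-fragment steps in 453 genes with 1 transcript of 350 to 1000 bases, less 150 bases. On low values, 65.0%, 54.3% and 51.1% in CTL, Ti and Ti+Se-Met lay within 0.1 fragment of a step, so whole reads were not recovered. Folds have 95% exact conditional binomial intervals, which omit errors of depth and length. Steps were tested on simulated data that used the same lengths and the same 150 bases as the estimate. That test therefore cannot check those 2 settings on the real values. Named genes are all members, the 5 nearest to Hmga1, the extremes of each list between Ti and CTL or between both Ti libraries, and, chosen after their values were seen, the other markers and list genes that the text gives. Members and lists were chosen with earlier results of these data known. A comparison of protein sequences was planned and not made.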

Additional observations from a re-analysis of the deposited data

How the results depend on the processing

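Ratios were recomputed after adding 0.1 or 5 FPKM instead of 1, without a filter, with a mean of at least 5 FPKM, at limits of 1.5-fold or 4-fold, and in 3 other scalings, namely TPM, median of ratios and upper quartile. Hmga1 and Hmga2 were past 2-fold against CTL in all of these, and past 4-fold as deposited, and 0 of the members past 2-fold reversed direction. Members under 2-fold could change sign. Hmgn1 did so between scalings in both comparisons to CTL, and Hmgn2 in Ti+Se-Met against CTL. At 1.5-fold, 4 of the 9 HMG genes were past the limit with Ti and 4 with Ti+Se-Met, each against CTL. With Ti the count was 3 in TPM, with Hmgn3, and in Ti+Se-Met it was 3 with a pseudocount of 0.1, with Hmgb3. The median log2 ratio of the family in Ti was 0.21 with a mean of at least 5 FPKM, -0.19 in TPM and -0.15 by the upper quartile, and in Ti+Se-Met 0.31 with the mean filter and -0.05 in TPM, so it has no stable sign. TPM moved the median of all genes in Ti against CTL from 0.08 to -0.14. For Hmga1 the log2 ratio in Ti was 3.11 with a pseudocount of 5, 3.04 in TPM and 3.07 by the upper quartile, and in Ti+Se-Met 3.01, 2.97 and 3.0. Its ratio of Ti+Se-Met to Ti was -0.04 by the median of ratios. The share of Hmga1 in the HMG sum was 4.6%, 24.3% and 23.2% in CTL, Ti and Ti+Se-Met when counted in fragments, and 16.1%, 51.6% and 50.3% without the HMGN genes. No paired analysis was possible because only 1 library was made per condition, and for the same reason no replicate could be left out. Estimated depth was lowest in Ti+Se-Met, which limits Hmgn5 and Hmgb3 most.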
